A study of Arabidopsis thaliana with 8 samples.

Results

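The comparison of the bdl cross with the Col-0 cross at 6 d covered 4 of the 8 arrays in the series, and its members were chosen by their labels, with no measured value used. In the bdl cross, M0191 plants were the mothers and bdl plants the fathers. In the Col-0 cross, M0171 plants were the mothers and Col-0 plants the fathers. Embryo RNA of both crosses was hybridised together on each array, in separate dye channels. Embryos of Arabidopsis thaliana were isolated at 6 d, which the labels count from pollination and the study's design text from fertilization. The labels give the Col-0 ecotype for both channels, and the 4 arrays are biological replicates per the labels. The bdl cross was labelled with Cy5 on replicates 1 and 2 and with Cy3 on replicates 3 and 4. Mothers and fathers both changed between the crosses, which means that maternal and paternal sources of a difference cannot be told apart, and the labels describe M0191 and M0171 no further. The other 4 arrays carried the same crosses at 3 d and are used here only to set the 6 d ratios beside the earlier stage.

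Auxin controls gene expression by causing the degradation of Aux/IAA proteins, which bind auxin response factors (ARFs) and repress their target genes. The bdl (bodenlos) mutation stabilises BDL, the Aux/IAA protein IAA12, which inhibits MP (MONOPTEROS, ARF5), and embryos that lack MP activity or hold stabilised BDL fail to form the embryonic root and form vascular tissue and cotyledons poorly. Late in embryo development, the regulators LEC1, LEC2, FUS3 and ABI3 switch on storage protein, oil and desiccation genes.

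Every value below is a log2 ratio of bdl cross to Col-0 cross, so a value above 0 means more transcript in the bdl cross, and 1 unit is a doubling. At 6 d only such ratios were analysed, so levels in each cross, including those of defining embryo markers, are not given. The direction of the 6 d ratios follows the convention of the deposited table, which was checked on the 3 d arrays only. Adjusted p-values come from limma with a dye term for each probe and Benjamini-Hochberg adjustment over all genes tested, and a gene is said to rise, fall or change where its adjusted p was under 0.05. Errors are standard errors of the fit. Fold changes, and means given with an error, are fitted ratios, which for genes with values on only 3 arrays can differ from the plain average. Because whole embryos and any tissue isolated with them were pooled into RNA, fewer cells of a type and less RNA per cell cannot be told apart.

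The 6 d arrays held 26342, 24778, 23517 and 24527 values, with medians between −0.03 and −0.02. Between pairs of 6 d arrays, Pearson's r over probes lay between 0.63 and 0.73, and between 0.74 and 0.83 over probes above the blank spots at 3 d. The highest of these correlations joined replicates 1 and 4, which carry opposite dyes per the labels. Over 250 dim probes the same pair had r = 0.44, followed by replicates 2 and 3 with 0.36, so the dim probes did not group by the labelled dye. No gene had a dye coefficient past the threshold in limma, with 732 at an unadjusted p under 0.05. A coefficient for replicates 1 and 4 against 2 and 3 also passed for no gene, with 1703 at an unadjusted p under 0.05. The median SD of a gene over its arrays was 0.22. It was 1.04 among 1320 genes whose probe was above the blank spots on fewer than 2 of the 3 d arrays. Among 15606 genes above them on all 3 d arrays it was 0.18.

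At 6 d the crosses differed over most of the measured genes. Of 19986 genes tested, 10665 (53.4%) passed the test, and they were divided evenly, with 5329 (26.7%) higher and 5336 (26.7%) lower in the bdl cross. Large differences were not even: 1137 genes (5.69%) rose by at least 2, against 226 genes (1.13%) that fell by at least 2. Of the genes called, 10537 (98.8%) had the same sign on every array that measured them, and their median change was 0.95 in size. The share called was 22.1% among genes above the blank spots on fewer than 2 of the 3 d arrays. It was 58.8% among genes above them on every 3 d array, and the part of signal in the count was not tested.

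The 15 genes whose array nearest 0 was highest included 2 storage protein genes, a transcription factor gene and several genes without a named function. This ranking meant that all 4 arrays had to be high, but not that they had to be close together. AT1G65490, which the RefSeq table gives no function, read 5.01, 5.04, 5.17 and 4.95 on replicates 1 to 4, a mean of 5.04 ± 0.07 or 32.9-fold (adjusted p = 0.00257). Its neighbour on chromosome 1, AT1G65500, read 4.49, 4.80, 4.60 and 4.66, or 24.9-fold. These 2 genes were also higher at 3 d, at 2.91 and 2.38, and the 6 d ratios were larger for both (differences of 2.13, adjusted p = 0.000692, and 2.26, adjusted p = 1.92e-05).

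MT1A, a metallothionein that binds metal ions, read 4.56, 4.73, 5.06 and 4.96, or 28.4-fold. GLP6, a germin-like cell wall protein, read 5.0, 4.62, 4.92 and 4.99, or 29.5-fold. ARPN, a small copper protein of the plantacyanin kind, read 4.25, 4.57, 4.95 and 5.05, or 26.0-fold. The ranking itself required every 6 d array of these genes to be high. At 3 d the same genes read 0.21, 1.88 and −0.22 with adjusted p of 0.152, 0.291 and 0.423. The vicilin-like storage protein PAP85 read 4.63, 4.22, 4.88 and 4.44, or 23.3-fold, and the albumin SESA3 read 5.13, 4.30, 4.56 and 5.21, or 27.8-fold. RAP2.6L, an AP2/ERF transcription factor, had the highest mean of those ranked, 5.80 ± 0.78 or 55.6-fold (adjusted p = 0.0127), but its arrays spread widely at 4.82, 6.13, 4.28 and 7.96. The rest of the 15 were AT5G44630, AT5G55132, AT4G28405, AT1G09370, AT5G38195, AT5G16230 and AT2G30810, with means between 4.36 and 5.14.

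The 15 genes whose array nearest 0 was lowest included regulators of lateral organs and wall proteins. YAB3, a YABBY factor of the lower leaf side, read −3.47, −3.58, −3.44 and −3.71, a mean of −3.55 ± 0.08 or 11.7-fold lower (adjusted p = 0.00257). AS1, a MYB factor that sets leaf identity against the meristem, read −3.25, −3.17, −3.31 and −3.19, or 9.38-fold lower. Both sets of 4 arrays were tight, and the ranking itself required them to lie far below 0. Both genes were nearer 0 at 3 d, at −0.35 and −0.37. PTF1 (TCP13), a TCP transcription factor, read −4.52, −4.69, −6.17 and −4.78, or 32.9-fold lower, with replicate 3 below the other arrays. Its probe and that of AT3G59270 were above the blank spots on no 3 d array. ATMYC1, a bHLH factor of the epidermis, read −3.11, −3.23, −3.14 and −3.19, and BXL2, a beta-xylosidase of the wall, read −3.27, −3.51, −3.64 and −3.75. WAK2, a wall-associated receptor kinase, averaged −3.23 ± 0.14 and LTL1, a GDSL lipase, averaged −4.18 ± 0.70. The rest of the 15 were AT2G45340, AT1G05577, AT3G59270, AT1G29270, AT5G40630, AT4G37570, AT3G21100 and AT3G15680, with means between −5.27 and −3.18. Replicate 3 was the lowest array of AT2G45340 at −8.22, of AT1G05577 at −7.81 and of LTL1 at −6.56, while their other arrays lay between −4.57 and −3.05.

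**Figure D1:**
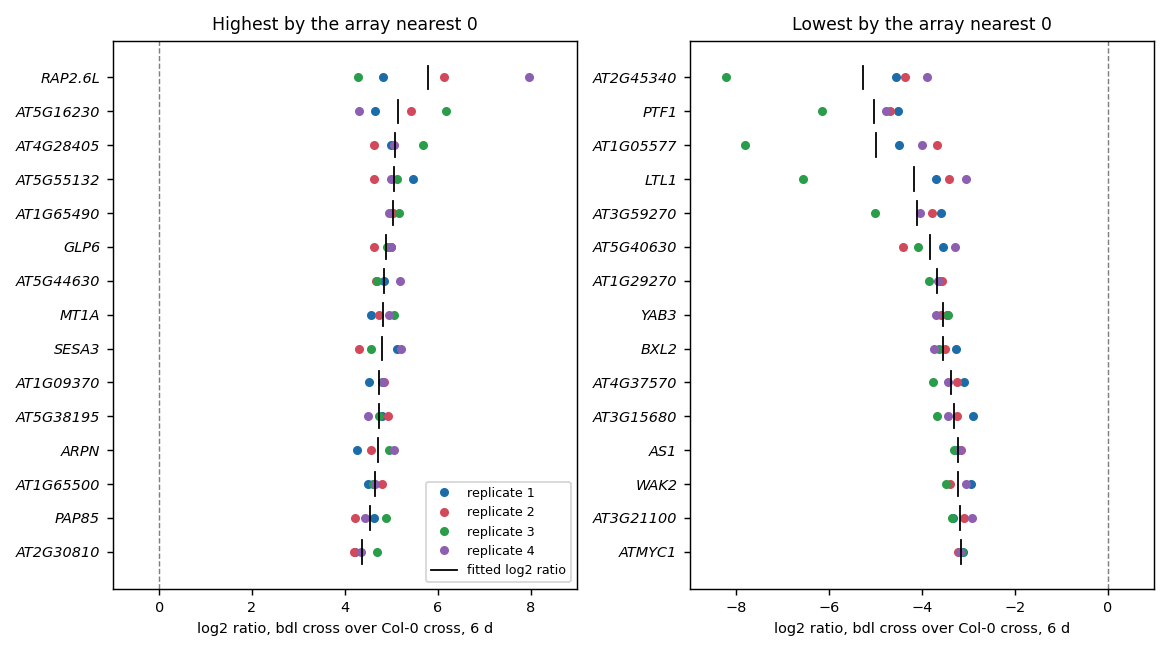
The log2 ratio of bdl cross to Col-0 cross at 6 d on each array (coloured points), with the fitted ratio as a bar, for the 15 genes whose array nearest 0 was highest and the 15 whose array nearest 0 was lowest. No point of the higher genes lies under 4.20 (AT2G30810) and no point of the lower genes lies above −2.91 (AT3G15680), with replicate 3 apart in AT2G45340, AT1G05577 and LTL1.

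MP was lower at 6 d, and the mutated gene IAA12 gave no single direction over its probes. IAA12, which encodes BDL, read 0.30, 0.39, 0.26 and 0.30 on the probe used, a mean of 0.31 ± 0.06 or 1.24-fold higher (adjusted p = 0.0283). Its arrays stayed close together above 0, far below the 3 d ratio of 3.40, and the stage difference was −3.09 (adjusted p = 1.09e-05). The other probes of IAA12 averaged 0.70 and −0.61, so its probes did not share 1 direction at 6 d. When the probes were averaged, IAA12 read 0.14 with an adjusted p of 0.192. MP read −1.48, −0.97, −0.92 and −1.37, a mean of −1.18 ± 0.15 or 2.27-fold lower (adjusted p = 0.0108), with every array below 0. The IAA12 ratios were not separated into the bdl allele and the other copies of the gene, and why its probes differed was not tested.

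Genes reported downstream of MP or BDL were divided at 6 d. Of 13 measured, 2 rose, 5 fell and 6 did not pass, with a median of −0.51, against 26.7% each way and a median of −0.02 over all genes. TMO7, a small bHLH protein that moves into the future root pole, read −2.75, −3.64 and −3.10 on the 3 arrays that measured it, or 8.88-fold lower (adjusted p = 0.0158). HB-8, an HD-ZIP III factor of the procambium, read −1.62, −1.87, −1.89 and −1.52, or 3.31-fold lower. FIL, a YABBY factor, read −1.07, −0.75, −0.75 and −0.85, or 1.81-fold lower. Opposite to these were DRNL and DRN, a pair of AP2-family genes with a role in cotyledon outgrowth. DRNL read 2.59, 2.69, 2.65 and 2.80, or 6.42-fold higher (adjusted p = 0.00257), and DRN read 1.86, 2.88, 2.57 and 2.10, or 5.11-fold higher. At 3 d both had been lower in the bdl cross, at −2.90 and −1.96, and the stage differences were 5.58 and 4.31 (adjusted p = 6.89e-06 and 4.34e-05).

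The receptors that perceive auxin all fell. TIR1 and AFB1 to AFB5 are the F-box proteins that bind auxin together with Aux/IAA proteins, and 6 of 6 passed downward, with a median of −0.99. AFB5 read −1.43, −1.36, −1.40 and −1.41, or 2.64-fold lower (adjusted p = 0.00262). AFB4 read −1.14, −1.27, −1.07 and −1.44, or 2.34-fold lower. The smallest change was that of AFB2, at −0.49, −0.81, −0.74 and −0.41, or 1.53-fold lower. TIR1 read −1.0, −0.73, −1.76 and −0.64, AFB1 read −1.40, −1.10, −0.30 and −0.99, and AFB3 averaged −0.91 ± 0.11. On the probes used, every array of every receptor was below 0. A second probe of AFB4 read −0.06, −0.23, −2.02 and 0.33, with replicate 4 above 0. With the dye term kept, at 6 d AFB2 lost its call without replicate 1, 2 or 3 (adjusted p = 0.0514, 0.0838 and 0.0759), at 6 d TIR1 without replicate 1 or 2 (adjusted p = 0.13 and 0.117) and at 6 d AFB1 without replicate 1 or 2 (adjusted p = 0.0785 and 0.0685). Fitted without a dye term, TIR1 missed the threshold when replicate 1 was left out (adjusted p = 0.0687) and AFB1 when any of replicates 1, 2 and 4 was left out (adjusted p up to 0.0683). At 3 d none of the 6 passed the test, and the stage difference was called for AFB2, AFB3 and AFB4.

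Auxin response factors fell more often than they rose: of 20 measured, 3 rose and 10 fell, with a median of −0.47. The largest fall was that of ARF13, at −2.33, −1.55 and −1.24 on 3 arrays, or 3.64-fold lower (adjusted p = 0.0106), although ARF13 has close copies that can share its probe and its call was lost without replicate 3. ARF9, an ARF of the suspensor, read −1.02, −1.07, −0.97 and −1.28, or 2.12-fold lower. ARF17 rose 1.90-fold, NPH4 (ARF7) 1.39-fold and ETT (ARF3) 1.20-fold on the probes used, ETT only just (adjusted p = 0.0491). The call on NPH4 rests on its brighter probe, since a second probe averaged −0.39. Among 23 Aux/IAA genes, 6 passed upward and 4 downward on the probes used, with a median of −0.05. That majority turned under other settings, to 5 higher and 7 lower with a dye term by replicates 1 and 4 against 2 and 3, and to 4 and 6 with probes averaged or, the dye term kept, without replicate 4. IAA26 read −1.84, −2.24, −2.43 and −1.99, or 4.36-fold lower (adjusted p = 0.0034). IAA30, which lacks the part that makes Aux/IAA proteins unstable under auxin, read −1.29, −1.49, −1.55 and −1.12, or 2.57-fold lower. IAA16 read 1.58, 1.17, 1.04 and 0.89, or 2.25-fold higher. IAA13, the closest relative of BDL, read 1.30, 1.11, 0.74 and 0.53 on the probe used, while its other probes averaged −1.80 and −2.25, so no direction is given for it. IAA19 averaged 1.08 ± 0.23 at 6 d, against −3.03 at 3 d, but its second array read only 0.08 and its 6 d call was lost without replicate 1, 3 or 4.

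Genes that dispose of auxin and move it were lower as groups. The GH3 enzymes, most of which couple auxin to amino acids, had 1 of 8 higher and 5 lower, with a median of −1.46. GH3.6 read −2.59, −3.36, −4.41 and −3.06, or 10.2-fold lower (adjusted p = 0.00625), and GH3.5 read −2.83, −3.14, −3.65 and −3.06, or 9.0-fold lower. GH3.2 averaged −2.94 ± 0.37 and GH3.3 −2.23 ± 0.10, and every array of both was below −2. The single member that rose was JAR1, which acts on jasmonate, at 0.60, 0.57, 0.57 and 0.60. Of 20 genes of auxin transport, 2 rose and 10 fell, with a median of −0.51. The efflux carrier PIN3 read −3.07, −2.79, −4.19 and −3.24, or 9.99-fold lower (adjusted p = 0.00339). The influx carrier LAX2 read −2.15, −2.12, −2.29 and −2.08, or 4.47-fold lower. The influx carrier AUX1 rose instead, at 0.98, 1.14, 1.11 and 0.92, or 2.05-fold, and the efflux pump ABCB1 averaged 0.60 ± 0.07. PIN7, whose product carries auxin from the suspensor into the early embryo, averaged −1.91 on the probe used and 0.36 and −0.33 on 2 others.

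Of 10 auxin synthesis genes measured, 2 rose and 3 fell (20% and 30%), shares near the 26.7% each way over all genes. YUC10, a YUCCA enzyme expressed in endosperm, read 3.02, 3.45, 3.24 and 2.80, or 8.74-fold higher (adjusted p = 0.00262). YUC4 read 0.27, 0.53, 0.49 and 0.49, or 1.36-fold higher, where at 3 d it had read 2.92 (stage difference −2.48, adjusted p = 0.000343). YUC3, YUC6 and the aminotransferase gene TAR2 fell, with fitted ratios of −1.55, −1.15 and −1.01. Among 44 SAUR genes, a family of small proteins many of which respond fast to auxin, 15 rose and 4 fell, with a median of 0.29. Genes of the lengths found in that family had a median of 0.47 over all genes, as described with gene length below.

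**Figure D2:**
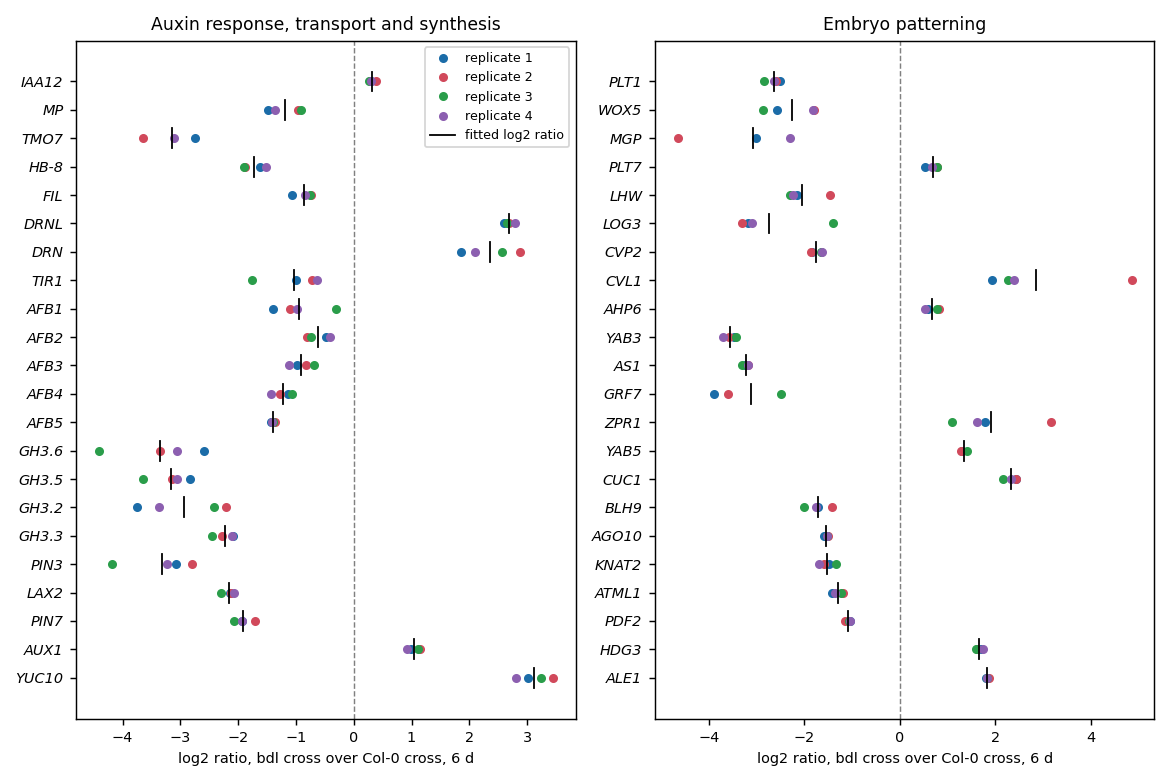
The log2 ratio of bdl cross to Col-0 cross on each array at 6 d (coloured points), with the fitted ratio as a bar, for IAA12, MP and named genes of the auxin lists (left) and the embryo pattern lists (right). Every point of the 6 receptors and of GH3.2, GH3.3, GH3.5 and GH3.6 lies below 0, while every point of DRNL, DRN, CUC1 and AHP6 lies above 0.

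Genes of the root pole had the lowest fitted median of the embryo pattern lists. Of 14 measured, 1 rose and 10 fell, with a median of −1.57, and the list's median lay between −2.09 and −1.15 on the 4 arrays. On replicate 2 the vascular list was lower, at −1.45. PLT1, an AP2 factor of the root stem cell niche, read −2.50, −2.59, −2.85 and −2.64, or 6.25-fold lower (adjusted p = 0.00257). WOX5, a homeobox gene of the quiescent centre, read −2.57, −1.80, −2.86 and −1.83, or 4.81-fold lower. MGP, a zinc-finger factor of the ground tissue, read −3.01, −4.66 and −2.30 on 3 arrays, with a fitted ratio of −3.07 ± 0.49. It missed the threshold without replicate 1, and its probe was above the blank spots on no 3 d array. PLT7 was the member that rose, at 0.53, 0.78, 0.78 and 0.67, or 1.61-fold.

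Vascular genes were also low, with 2 of 11 higher, 6 lower and a median of −1.21. LHW, the bHLH partner of TMO5 in vascular cell divisions, read −2.15, −1.46, −2.31 and −2.24, or 4.11-fold lower (adjusted p = 0.00428). CVP2, a phosphatase needed for closed vein networks, read −1.84, −1.87, −1.64 and −1.64, or 3.36-fold lower. LOG3, which makes active cytokinin, read −3.19, −3.31, −1.40 and −3.10, or 6.72-fold lower, with replicate 3 nearer 0 than the others. Its opposite was AHP6, an inhibitor of cytokinin signalling, at 0.59, 0.83, 0.78 and 0.52, or 1.60-fold higher. AHP6 had read −4.33 at 3 d, and its stage difference of 5.01 passed (adjusted p = 1.83e-05). CVL1, a relative of CVP2, averaged 2.86 ± 0.59 with 1 array at 4.86 and the rest between 1.93 and 2.40.

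Leaf polarity and lateral organ genes fell in 14 of 23 cases and rose in 4, with a median of −0.56. Besides YAB3 and AS1, described above, GRF7, a growth-regulating factor, read −3.89, −3.60 and −2.49 on 3 arrays, or 8.67-fold lower. YAB5, another YABBY gene, read 1.30, 1.29 and 1.40 on 3 arrays, or 2.54-fold higher, against −4.50 at 3 d (stage difference 5.85, adjusted p = 8.42e-05). These YAB5 values come from the brightest of its 3 probes; the others averaged 1.72 and 0.64, and the third read −0.32 on replicate 2. ZPR1, a small inhibitor of HD-ZIP III factors, averaged 1.92 ± 0.30, and GRF3 averaged 0.98 ± 0.08. The call on ZPR1 was lost in 3 of 8 fits that left out 1 array, among them without replicate 1. Within 1 YABBY family, YAB3 and FIL were thus below 0 and YAB5 above it on every array that measured them with the probes used.

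Shoot apex and boundary genes had 8 of 19 higher and 5 lower, with a median of 1.03. The shares were 42.1% and 26.3%, against 26.7% each way over all genes. CUC1, a NAC factor that separates the cotyledons, read 2.43, 2.44, 2.15 and 2.33, or 5.06-fold higher (adjusted p = 0.00257). BLH9, a homeobox factor of the shoot meristem, read −1.72, −1.42, −2.01 and −1.76, or 3.30-fold lower. AGO10, an Argonaute protein that keeps the shoot meristem, read −1.58, −1.51, −1.52 and −1.53, or 2.90-fold lower, and KNAT2 averaged −1.53 ± 0.10. The list's median differed among arrays, from 0.20 on replicate 4 to 1.30 on replicate 3.

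Zygote and suspensor genes had 3 of 12 higher and 4 lower (25% and 33.3%), shares near the 26.7% each way over all genes. A dye term by replicates 1 and 4 against 2 and 3 turned the counts to 4 higher and 3 lower, and leaving out replicate 4 without a dye term to 5 and 4. SSP, a kinase-like protein whose transcript arrives with the sperm and acts in the zygote, read 0.62, 1.16, 1.09 and 0.99, or 1.95-fold higher. WOX8, a homeobox gene known from the suspensor lineage, read 3.90, 3.87 and 3.72 on replicates 1 to 3 and −4.54 on replicate 4, and it did not pass (adjusted p = 0.439). Without replicate 4 it averaged 3.83 and passed (adjusted p = 0.00323, no dye term). In the epidermis and cuticle list, 6 of 24 rose and 10 fell (25% and 41.7%), so the share that rose was near that over all genes. ATML1 and PDF2, HD-ZIP IV factors that specify epidermis, read −1.42, −1.18, −1.24 and −1.35, and −1.05, −1.16, −1.07 and −1.04. ALE1, a protease gene active in endosperm and needed for the embryo cuticle, rose 3.55-fold at 1.81, 1.86, 1.83 and 1.82. HDG3 rose 3.17-fold. CER1, an enzyme of wax alkane synthesis, averaged 2.18 ± 0.45 with replicate 3 at 3.90 and the others at 1.59, 1.61 and 1.64, and missed the threshold without replicate 1, 2 or 4.

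Seed storage protein genes were the highest list at 6 d, and all 9 measured members rose, with a median of 3.82. The albumin SESA1 read 3.43, 3.44, 2.99 and 3.52, SESA2 4.28, 3.16, 3.03 and 4.61, SESA4 4.33, 4.12, 4.12 and 4.76, and SESA5 4.25, 4.48, 3.98 and 4.87. The cruciferin CRU2 read 4.18, 3.60, 3.90 and 3.62, or 14.2-fold higher (adjusted p = 0.00257), CRA1 1.84, 2.02, 2.38 and 2.20, and CRU3 1.68, 1.44, 2.03 and 2.30. On the probes used, the lowest array of any member was 1.44, in CRU3. Second probes of CRA1 and CRU3 averaged 1.48 and 1.14, with their lowest arrays at 1.23 and 0.56. The albumin genes are similar copies, so their probes may share transcripts and their values are not independent. Of the 7 members tested at 3 d, 7 were already higher there, with a list median of 4.36. CRA1 had a smaller ratio at 6 d (stage difference −2.85, adjusted p = 0.00221) and SESA4 a larger ratio (0.83, adjusted p = 0.0247).

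The regulators of maturation rose by less. Of 13 measured, 8 rose and 2 fell, with a median of 0.74 and array medians between 0.64 and 0.75. LEC2 read 0.92, 0.81, 0.81 and 0.75, or 1.77-fold higher (adjusted p = 0.00455). FUS3 read 0.78, 0.72, 0.82 and 0.83, or 1.73-fold, and LEC1 read 0.83, 0.82, 0.75 and 0.70, or 1.71-fold. MYB118, a MYB factor of the endosperm, rose most, at 2.03, 2.14, 1.96 and 2.21, or 4.24-fold. The 2 that fell were ABI3, at −0.68, −0.91, −0.77 and −0.67 or 1.69-fold lower, and ABI4, at −1.38, −1.44, −1.27 and −1.08 or 2.45-fold lower, both factors named for their part in the abscisic acid response. WRI1, which switches on fatty acid synthesis, rose 1.46-fold, with a ratio smaller than at 3 d (stage difference −0.58, adjusted p = 0.00346).

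Oil body and oil assembly genes had 5 of 11 higher and 3 lower (45.5% and 27.3%), against 26.7% each way over all genes. CLO1, a caleosin of the oil body surface, read 4.59, 3.69, 3.93 and 5.01, or 19.8-fold higher (adjusted p = 0.00371). FAE1, which elongates seed fatty acids, read 3.16, 4.09, 2.51 and 2.68, or 8.63-fold higher. The oleosin OLEO1 read 2.38, 2.33, 2.31 and 2.22, while OLEO4 read 0.43, 0.58, 0.62 and 0.59 at 6 d against 4.39 at 3 d (stage difference −3.84, adjusted p = 0.000103). TAG1, which makes storage oil, fell at −0.95, −0.86, −0.87 and −0.98, and FAD3, a desaturase, fell at −0.89, −0.70, −0.70 and −0.68. Late embryogenesis abundant genes, which act in desiccation, had 10 of 25 higher and 4 lower, with a median of 1.06. LEA7 read 4.05, 4.50, 4.28 and 4.87, or 21.5-fold higher, and ECP63 and GEA6 averaged 3.41 ± 0.27 and 2.98 ± 0.35. COR47, a dehydrin, fell at −1.73, −1.71, −0.92 and −0.44, and missed the threshold without replicate 1, 2 or 3.

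Cell cycle genes were lower and inhibitors of the cycle were higher. Of 10 inhibitor genes, 7 rose and 1 fell, with a median of 1.58. SIM, which blocks mitosis in endoreduplicating cells, read 3.46, 4.26, 3.89 and 3.36, or 13.4-fold higher (adjusted p = 0.00293). SMR4, of the same family, read 3.38, 3.09, 3.01 and 3.10, or 8.85-fold. KRP7, an inhibitor of cyclin-dependent kinases, read 1.69, 2.39, 2.87 and 2.00, close on every array to KRP6 at 1.63, 2.42, 2.69 and 1.97. With its probes averaged, KRP6 read 1.00 and did not pass (adjusted p = 0.0719). SMR1, SMR7 and KRP5 also rose, with fitted ratios of 0.96, 1.77 and 0.45, where SMR7 read 2.68, 1.36 and 0.37 on 3 arrays. The calls on SMR1 and SMR7 were lost under a dye term by replicates 1 and 4 against 2 and 3, which left 5 inhibitors higher. KRP4 fell, at −0.69, −0.33, −0.58 and −0.43.

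D-type cyclins, which start the cycle, had 2 of 10 higher and 5 lower (20% and 50%). CYCD1;1 read −1.56, −1.63, −1.67 and −1.70, or 3.11-fold lower (adjusted p = 0.00257), and CYCD3;1, CYCD3;2 and CYCD3;3 averaged −0.89, −0.67 and −0.78. CYCD4;1 and CYCD7;1 rose, with means of 1.00 and 1.45. Of 29 mitotic cyclins and kinases, 3 rose and 17 fell, with a median of −0.48. CDKB2;1, a mitotic kinase, read −1.43, −1.28, −1.62 and −1.14, or 2.58-fold lower, and CYCA2;4 read −2.01, −1.41, −1.54 and −1.13. Of 25 DNA replication genes, 1 rose and 18 fell, with a median of −0.65. ORC1B, of the origin recognition complex, read −1.80, −1.52, −1.70 and −2.18, or 3.48-fold lower (adjusted p = 0.00389). PCNA2, the sliding clamp, read −1.50, −1.58, −1.81 and −1.43. The single replication gene that rose was TSO2, a small subunit of ribonucleotide reductase, at 0.44, 0.37, 0.46 and 0.25.

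Genes that build ribosomes fell while ribosomal proteins rose more often than they fell. Of 18 ribosome assembly genes, 1 rose and 12 fell, with a median of −0.87. NOP56, a nucleolar protein of the snoRNA complexes, read −1.33, −1.40, −1.47 and −1.59, or 2.73-fold lower (adjusted p = 0.00264). NUC-L1, the main nucleolin, read −1.61, −2.09, −2.01 and −1.13, while its relative NUC-L2 rose at 0.44, 0.60, 0.65 and 0.39. Among 221 genes listed as cytosolic ribosomal proteins, 98 rose and 34 fell, with a median of 0.32, and array medians lay between 0.26 and 0.43. The list was matched by symbol, synonym or description, and whether each protein acts in the cytosol was not checked. AT4G33865 read 2.83, 2.58, 2.58 and 3.47, or 7.28-fold higher. RPS6 read −1.92, −2.56, −2.51 and −2.02, or 4.76-fold lower (adjusted p = 0.00445). At 3 d the same list had a median of −0.36, with 0 genes higher and 39 lower, and the stage difference passed upward for 119 of 220 and downward for 20.

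Families of organelle and translation factors were among the most one-sided. Of 380 pentatricopeptide repeat genes, whose proteins edit and process organelle RNA, 12 rose and 208 fell, with a median of −0.67. AT1G68930 read −2.91, −2.88, −3.41 and −2.82, or 8.03-fold lower, and AT1G07590 read 3.83, 4.14, 3.67 and 4.04, or 15.1-fold higher (adjusted p = 0.00262 and 0.00257). The probe of AT1G68930 was above the blank spots on no 3 d array. Of 51 aminoacyl-tRNA synthetase genes, which charge tRNAs, 3 rose and 31 fell, with a median of −0.74. AT5G26830 read −1.76, −1.62, −1.67 and −1.80, or 3.27-fold lower, while AT1G17960, named as the same kind of enzyme, read 2.43, 2.38, 2.68 and 2.21.

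Plastid lists differed in their counts. Calvin cycle genes had 3 of 16 higher and 4 lower (18.75% and 25%), against 26.7% each way over all genes. Photosystem and light-harvesting genes had 24 of 45 higher and 3 lower. Their median of 0.39 stood beside 0.47 for genes of their lengths, as described with gene length below. PSAK, a subunit of photosystem I, read 2.82, 2.83, 2.79 and 2.83, or 7.04-fold higher, and PSBTN, of photosystem II, read 3.14, 3.22, 3.06 and 3.16, or 8.86-fold (both adjusted p = 0.00257). Chlorophyll synthesis genes had 3 of 21 higher and 12 lower, with a median of −0.53, and 16 of 20 had a lower ratio at 6 d than at 3 d by the stage test. PORB, which makes chlorophyllide in the light, read −1.30, −1.40, −1.35 and −1.32 at 6 d, against 0.54 at 3 d (stage difference −1.89, adjusted p = 1.94e-05).

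Of 21 cytokinin genes, 6 rose and 8 fell (28.6% and 38.1%, against 26.7% each way over all genes), with a median of −0.42. ARR16 and ARR15, response regulators that cytokinin induces, read 3.69, 3.36, 3.40 and 3.14, or 10.5-fold higher, and 2.09, 1.93, 1.84 and 1.95, or 3.87-fold higher. The cytokinin oxidase gene CKX5 read −2.32, −2.16, −2.01 and −2.05, or 4.40-fold lower, and the response factors CRF1 and CRF5 averaged −1.57 ± 0.07 and −2.17 ± 0.28. Of 16 gibberellin genes, 7 rose and 3 fell (43.75% and 18.75%). GA20OX4 and GA20OX3, of gibberellin synthesis, averaged 2.01 ± 0.07 and 1.44 ± 0.07, and GA2OX2, of gibberellin breakdown, averaged −1.83 ± 0.08. Of 25 abscisic acid genes, 9 rose and 8 fell (36% and 32%). The ethylene list had 9 of 26 higher and 5 lower (34.6% and 19.2%). The jasmonate list had 4 of 23 higher and 4 lower, a called share of 34.8% against 53.4% over all genes.

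**Figure D3:**
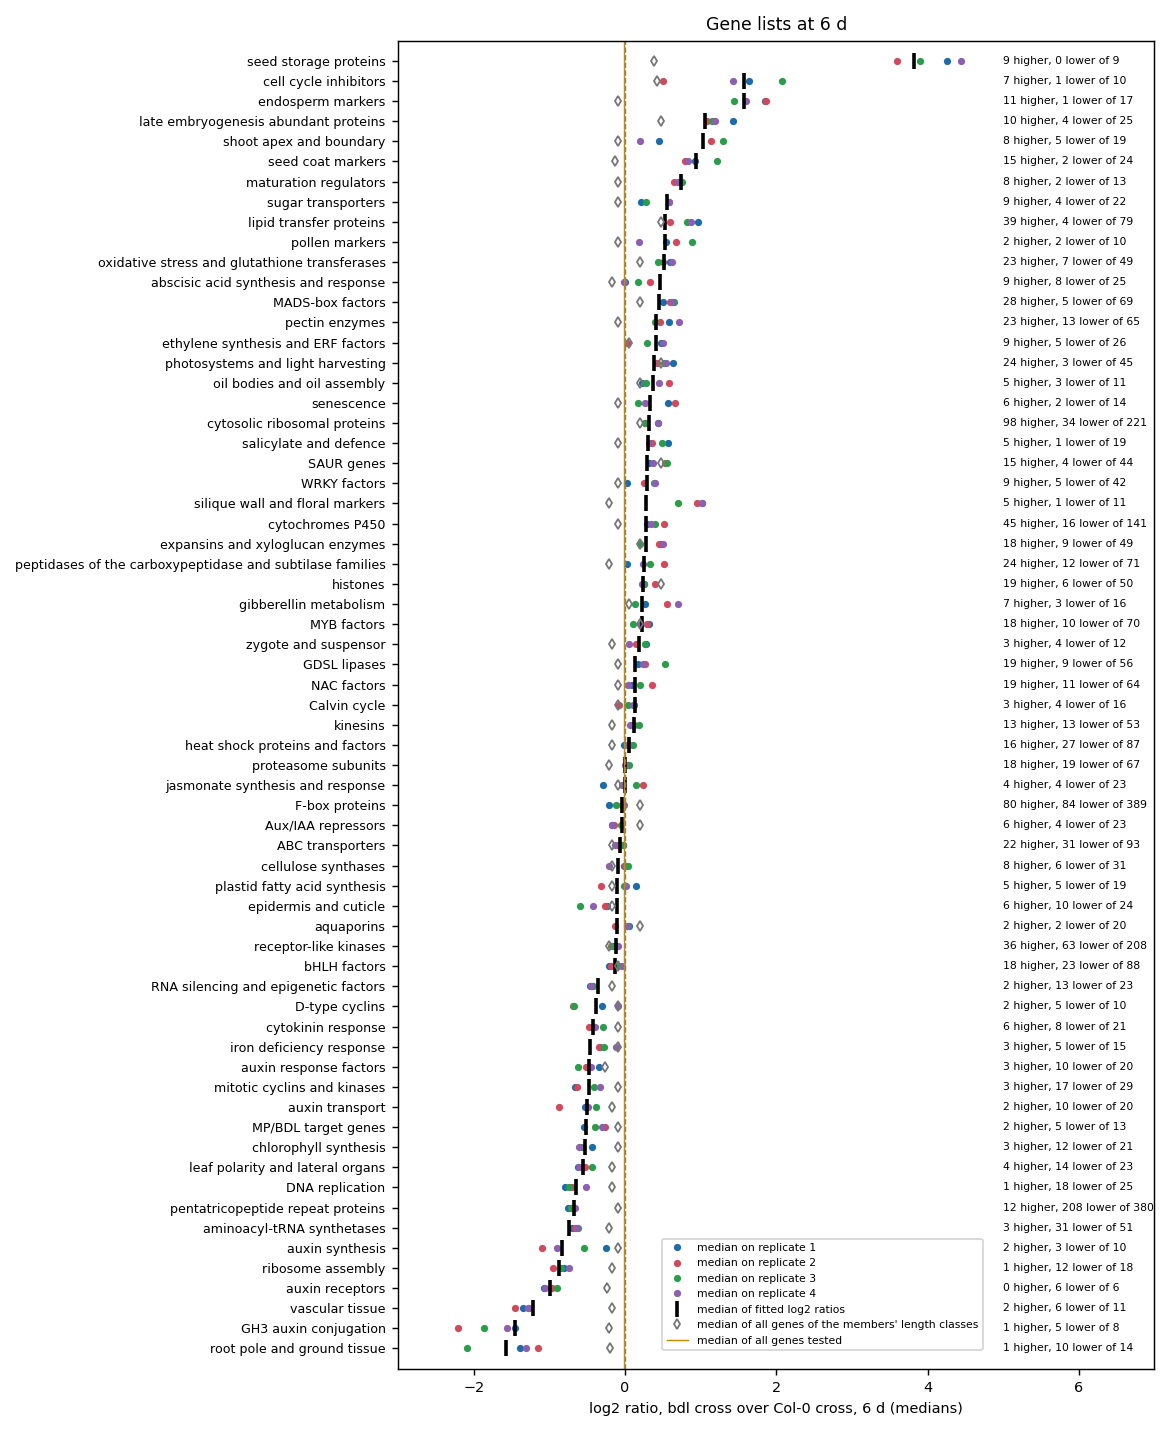
The median log2 ratio of bdl cross to Col-0 cross over the members of each gene list at 6 d (bars), with the median on each array (points), the median of the members' length classes (diamonds) and the counts of members higher and lower. Seed storage proteins lie highest at 3.82 and the root pole list lowest at −1.57 by the fitted median, although the GH3 list lies lower on replicates 1, 2 and 4, and the median of all genes tested is −0.02.

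Markers of tissues that surround the embryo in the seed moved with these lists. Of 17 endosperm markers, 11 rose and 1 fell, with a median of 1.57 and array medians between 1.44 and 1.86. MYB56, a MYB factor of seed growth, read 2.73, 2.73, 2.93 and 2.95, or 7.15-fold higher, and PHE1, an imprinted MADS-box gene of the endosperm, read 2.13, 2.13, 2.43 and 1.68, or 4.26-fold higher (adjusted p = 0.00257 and 0.00453). IKU1 was the marker that fell, at −1.49, −0.76, −0.91 and −1.19. Of 24 seed coat markers, 15 rose and 2 fell, with a median of 0.94 and array medians between 0.79 and 1.22. TT19, a glutathione transferase of pigment transport, read 3.63, 2.74, 3.68 and 4.54, or 12.5-fold higher, TT3, an enzyme of flavonoid synthesis, read 2.29, 2.18, 2.27 and 2.37, and TT10, a laccase of the seed coat, read 2.56, 2.14, 1.98 and 2.20. At 3 d the medians were smaller, 0.53 for endosperm and 0.38 for seed coat, and 13 of 23 seed coat and 7 of 16 endosperm markers passed upward for the stage difference. The pollen list had 2 of 10 higher and 2 lower (20% each), under the 26.7% each way over all genes. The silique wall and floral list had 5 of 11 higher and 1 lower (45.5% and 9.1%), with SEP1 at 2.63, 2.35, 2.33 and 2.13. Some of these genes are also expressed in embryos, and the part of surrounding tissue in the differences between the crosses was not tested. YUC10, ALE1 and MYB118, named above, are known from endosperm.

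Gene length went with the 6 d ratio. Across 19853 genes with a length in the RefSeq table, Spearman's rho between length and ratio was −0.25, with array values between −0.25 and −0.23, where genes are not independent replicates. At 3 d the same value was 0.01. Genes that rose had a median length of 1944 bp, genes that fell 2754 bp, and genes that did not pass 2230 bp. Among genes over 1000 and up to 1500 bp, 39.6% rose and 11.2% fell, with a median of 0.47, and among genes over 3000 and up to 4000 bp, 19.4% rose and 38.7% fell, with a median of −0.26. At 3 d the medians of all length classes lay between −0.03 and 0.03. The part of length in the list results was not tested, so each list was set beside the median of its members' length classes. That value was −0.10 for pentatricopeptide repeat genes, −0.21 for aminoacyl-tRNA synthetases, −0.18 for DNA replication, 0.20 for cytosolic ribosomal proteins, 0.38 for storage proteins, and 0.47 for photosystem genes. The list medians of pentatricopeptide repeat and storage protein genes lay well beyond these values, whereas the photosystem median of 0.39 lay below its own.

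**Figure D4:**
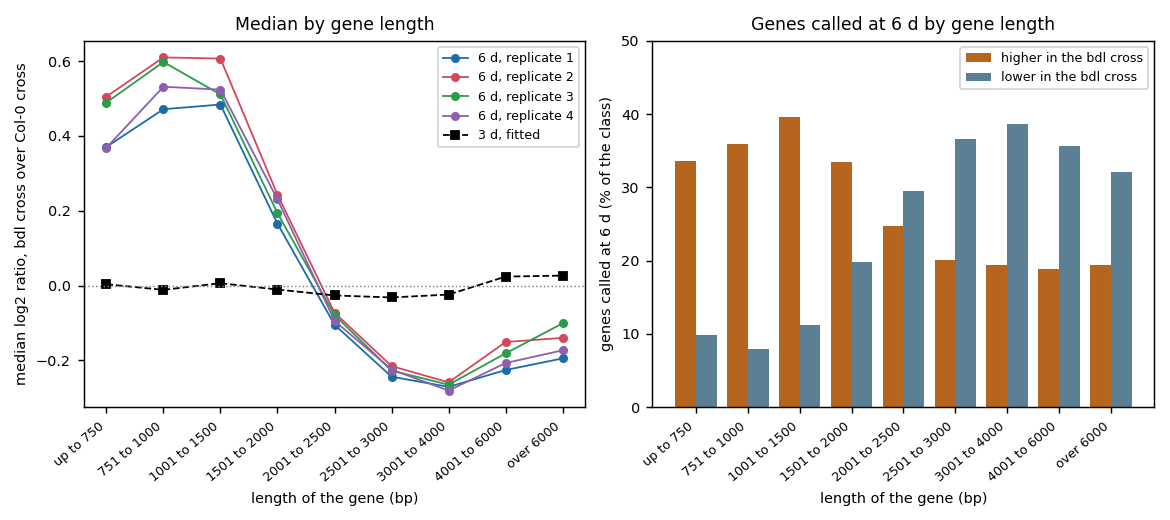
The median log2 ratio of bdl cross to Col-0 cross by class of gene length in base pairs, on each 6 d array and fitted at 3 d (left), and the percentage of each class that rose or fell at 6 d (right). All 4 arrays are above 0 in the classes up to 2000 bp and below 0 in those over 2000 bp, while the 3 d medians stay within 0.03 of 0.

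The 6 d ratios were set beside those at 3 d, to ask which differences between the crosses depended on stage. In a fit over all 8 arrays, 8410 of 18843 genes (44.6%) passed for the stage difference, 4500 (23.9%) with a higher ratio at 6 d and 3910 (20.8%) with a lower ratio. Of the 5181 genes that rose at 6 d and were tested at both stages, 3769 had a higher ratio at 6 d than at 3 d and 63 a lower ratio. Of the 5153 that fell, 3256 had a lower ratio at 6 d and 73 a higher ratio. At 3 d, 1787 of 20124 genes tested (8.88%) passed, against 53.4% at 6 d, which bounds the number that could be called at both stages. Pearson's r between pairs of 3 d arrays lay between 0.20 and 0.46 over probes. Of the genes tested at both stages, 580 were higher at both and 441 lower at both. Another 152 were higher at 6 d and lower at 3 d, and 75 were lower at 6 d and higher at 3 d. Of those 227 opposed genes, 226 passed for the stage difference, which their choice by opposite calls on the same arrays made likely.

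Among the opposed genes, DRNL, DRN, YAB5, AHP6 and IAA19 were high at 6 d and low at 3 d, as given above. Those opposed the other way held ARD3, an acireductone dioxygenase of methionine salvage, at −1.0, −0.83, −0.93 and −1.06 at 6 d against 3.61 at 3 d (stage difference −4.57, adjusted p = 0.000705). AT1G33750, annotated as a terpene synthase, read −1.56, −1.68, −1.67 and −1.57 at 6 d against 2.19 at 3 d (stage difference −3.81, adjusted p = 1.09e-05). AT1G09750, annotated as an aspartyl protease, read −2.58, −2.72, −2.71 and −2.92 at 6 d against 1.98 at 3 d (stage difference −4.72, adjusted p = 1.3e-05). All 6 d arrays of these 3 genes were below 0. AT4G29270, annotated as an acid phosphatase, averaged −0.84 at 6 d and 2.99 at 3 d. Of the 10 widest upward stage differences among genes with 4 values at each stage, those of DRNL and AHP6 had a ratio past the threshold at 3 d and the other 8 did not. AT3G52550 averaged 4.10 at 6 d with a stage difference of 5.54 ± 1.25, AT3G56260 averaged 4.03 with 5.38 ± 1.54, and AT5G50050 averaged 4.36 with 5.02 ± 0.42. The ratios spread more over genes at 6 d than at 3 d (SDs of 1.21 to 1.41 against 0.87 to 1.00), and with arrays scaled to 1 spread, the stage difference passed for 6301 genes, 3615 upward and 2686 downward.

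**Figure D5:**
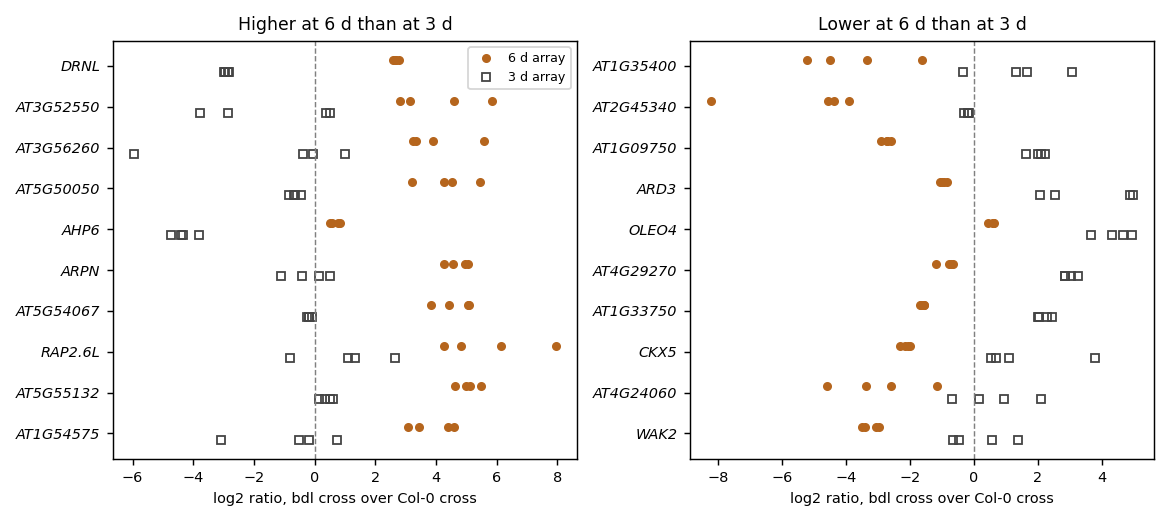
The log2 ratio of bdl cross to Col-0 cross on each 6 d array (filled circles) and each 3 d array (open squares), for the 10 genes with the highest and the 10 with the lowest fitted stage difference among those with 4 values at each stage. In DRNL and AHP6 the 6 d arrays lie above 0 and the 3 d arrays below it, and in ARD3, AT1G09750, AT4G29270 and AT1G33750 the reverse holds.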

How the data were processed

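RNA of isolated embryos was amplified and hybridised to 2-colour arrays, per the labels' protocols; the scanner and the authors' normalization were not given in the sources used. The authors deposited a table of log2 ratios for all 8 arrays, which supplied every 6 d value. For 3 d the authors also deposited 1 linear intensity per spot and cross. Of the table's 28399 probes, 24661 matched 1 spot each within 1e-06, with the bdl cross as numerator, which gave names; 3738 stayed unnamed. The same direction was assumed for 6 d. A locus (22127 in all, 21973 of them in the RefSeq genes of assembly TAIR10.1, used for names, order and length) took its probe of highest mean 3 d intensity; 1520 loci had several. No slide or scan date was available for a batch test.

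Genes with values on at least 3 arrays and both dye orientations entered a linear model in limma 3.58.1 (lmFit, eBayes; R 4.3.3, data.table version 1.17.8), and figures were drawn with matplotlib 3.10.9 in Python 3.11.15. The design had a dye term; p-values were adjusted by the Benjamini-Hochberg method and called under 0.05. The stage difference was a coefficient in a fit over the 8 arrays. The script was tested on simulated data. The number of arrays, 4, limits the precision. Same-numbered 3 d and 6 d arrays were not paired, since the correlations of their deviations were between −0.08 and −0.04.

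The genes and the 65 gene lists were chosen with earlier results of these data known, so a list's direction is not independent evidence. Named genes were IAA12 and MP, the 15 highest and 15 lowest by the array nearest 0, up to 3 called members at each end of a list with all members of short lists, and the 10 highest and 10 lowest stage differences; of the 428 genes these rules give, the text prints a part. Alternatives were the dye term, the probe choice, filters, scaling, array weights and leaving out each array, plus a dye term by replicates 1 and 4 against 2 and 3, chosen after seeing the data.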

Additional observations from a re-analysis of the deposited data

Results flagged for a closer look

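In 17 of the genes examined, 1 of the 4 arrays lay far from the other 3 at 6 d; chance marks about 1 in 20 groups of 4 in this way. Among the highest and lowest genes these were replicate 1 of AT1G09370 at 4.53, replicate 3 of PTF1 at −6.17 and replicate 3 of AT2G45340 at −8.22. In the auxin and pattern lists they were ETT at 0.13, YUC4 at 0.27, YUC6 at −1.50, CVL1 at 4.86, LOG3 at −1.40, WOX8 at −4.54, YDA at 0.42 and CER1 at 3.90. In the remaining lists they were SESA1 at 2.99, FAD3 at −0.89, CDC45 at −1.23, AT2G17360 at −3.31, AT1G68930 at −3.41 and HON5 at −2.45. Only in WOX8 did the array that stood apart have the opposite sign to the other 3.

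The stage difference, 6 d minus 3 d, passed for 8410 genes. Among the named genes that passed in opposite directions at the 2 stages, it was 5.58 for DRNL, 4.31 for DRN, 4.11 for IAA19, 0.92 for ETT, 5.01 for AHP6, 2.97 for ZPR1, 5.85 for YAB5, 1.22 for TSO2 and 3.51 for AT5G39800, which were higher in the bdl cross at 6 d and lower at 3 d. It was −2.68 for ARF13, −2.12 for COR47, −1.89 for PORB, −4.57 for ARD3, −3.84 for AT4G29270, −3.81 for AT1G33750 and −4.72 for AT1G09750, which were lower at 6 d and higher at 3 d.

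Unnamed probes of the ratio table, which no comparison used, also differed between the crosses at 6 d. Of those with values on at least 3 arrays, 1477 in all, 17.47% had a median ratio over arrays of 1 or more and 18.89% of −1 or less. The named probes had 17.48% and 12.48%.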

How the results depend on the processing

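The count of genes called at 6 d, 10665, stayed within 1.5 times under every alternative tried, from 7152 to 11798, and the stage count of 8410 from 6301 to 8732. Leaving out 1 array gave 7152 to 8416 genes with the dye term and 9927 to 10300 without it, and 7511 to 7841 for the stage difference. The replicate block gave 7369 stage calls; the numbers did not pair the arrays. At 6 d IAA12 lost its call when its probes were averaged (0.14) and, with the dye term kept, without any 1 array (0.34, 0.29, 0.32 and 0.30 without replicates 1 to 4, adjusted p = 0.0822 to 0.111), and another of its probes turned to −0.61. At 6 d MP kept its call throughout, between −1.31 and −1.06. At 6 d IAA13 turned to −1.04 with probes averaged, and at 6 d WOX8 turned to −0.33 without replicate 3 and passed without replicate 4. No other of the 225 named genes turned under these settings, but single probes were fitted only for IAA12 and MP, and other probes of NPH4 (−0.39), PIN7 (0.36) and KRP6 (−2.34, on 1 array) averaged the opposite sign to the probe used. With the dye term kept, leaving out 1 array ended the calls on 23 to 43 named genes. ETT, NPH4, KRP6, PDAT1, AGL65 and AT4G24060 lost their calls under at least 1 other setting. The dye term by replicates 1 and 4 against 2 and 3 ended the calls on IAA4, IAA19, ARF13, GH3.17, SMR1, SMR7 and PI. Without a dye term, leaving out 1 array ended those on TIR1, AFB1, MGP, ZPR1, CER1, COR47, CYCB1;5, AT2G17360, PORC and CHLH, among others. For each of these the cause was not tested. Of the 65 lists, 8 turned their majority of higher or lower members under at least 1 alternative: the Aux/IAA, zygote and suspensor, Calvin cycle, proteasome, heat shock, iron deficiency, cellulose synthase (8 higher and 6 lower, against 6 and 7 with the dye term by replicates 1 and 4 against 2 and 3) and ABC transporter lists. Probes that were fainter at 3 d had larger SDs at 6 d, and whether this limited the calls was not tested.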

Other observations

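At 6 d, 28 of 69 MADS-box genes rose in the bdl cross and 5 fell; their median was 0.45, beside 0.20 for their length classes. AGL102 read 3.20, 3.31, 3.43 and 3.14, AGL91 read 2.78, 4.19, 2.94 and 3.05, and AGL87 read 2.57, 2.88, 2.54 and 3.10, all well above 0 on every array. CAL, a floral MADS-box factor, fell at −1.37, −2.06, −2.60 and −1.52. RNA silencing and epigenetic genes had 2 of 23 higher and 13 lower, with a median of −0.36. DME, a DNA demethylase, rose at 1.16, 1.35, 1.32 and 1.09, and SWN, a Polycomb methyltransferase, rose at 0.89, 1.45, 1.18 and 1.14. The chromatin remodellers PKL and DDM1 fell, at −1.29, −2.15, −2.10 and −1.05 and at −1.85, −1.22, −1.68 and −1.46, and SE, which acts in microRNA processing, averaged −1.41 ± 0.23.

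Histone genes had 19 of 50 higher and 6 lower, with a median of 0.24 beside 0.47 for genes of their lengths, and 24 of 50 had a higher ratio at 6 d than at 3 d. The histone H2B gene HTB2 read 2.22, 1.97, 2.64 and 3.10. Lipid transfer proteins, many of them small secreted proteins, had 39 of 79 higher and 4 lower, with a median of 0.53 beside 0.47 for their length classes.

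Some families were picked after their values were seen, so their counts are descriptions with no test. Over all genes, 26.7% rose and 26.7% fell. Germin-like proteins had 9 of 19 higher and 0 lower, with a median of 1.55 beside 0.47 for their length classes. Metallothioneins had 5 of 6 higher and 1 lower, with a median of 2.24 beside 0.38. Defensin-like peptides had 7 of 18 higher and 2 lower, with a median of 0.67 beside 0.38. Major latex-like proteins had 10 of 22 higher and 1 lower, and inhibitors of invertases and pectin methylesterases 13 of 41 higher and 5 lower. The medians of these last families, 0.51 and 0.49, were near the 0.47 of their length classes.

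Some genes with large positive ratios lay side by side. Of 19544 protein-coding genes tested, 1127 passed with a ratio past 2 and 217 with a ratio past −2. In the order of the RefSeq table, 18 runs of at least 3 successive tested genes, 58 genes in all, were past 2 and 0 runs were past −2. Another 70 pairs were past 2 and 7 pairs past −2. The number of such runs that gene order alone gives was not computed. The longest held 5 genes, from AT4G12850 to AT4G12900 on chromosome 4, with ratios between 2.00 and 2.55. SESA1 to SESA4 formed a run of 4, with ratios between 3.34 and 4.80. Many runs hold similar copies, such as the lipid transfer genes LTP4 and LTP3 and the trypsin inhibitor genes TI1 and TI2, and whether their probes read each other's transcripts was not tested.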
